A study of Mus musculus with 6 samples.

Results

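The 10 genes described here encode regulators of G-protein signalling (RGS proteins): Rgs2, Rgs3, Rgs4, Rgs5, Rgs10, Rgs12, Rgs14, Rgs16, Rgs17 and Rgs19. They were taken by gene symbol, as all 22 bead-array probes annotated to these symbols, out of 45281 probes and 19057 named genes on the array. Transcripts were measured on 6 Illumina 1-colour bead arrays, 3 of GFP-positive and 3 of GFP-negative cells. Both groups came from male Zfp423-GFP mice, 5 weeks old, and both were PDGFRβ-positive, CD31-negative and CD45-negative cells of the stromal vascular fraction of epididymal fat, and they were split by the presence or lack of GFP fluorescence. The sample titles open with RG for 2 GFP-positive samples and 1 GFP-negative sample, and with KM for 1 GFP-positive sample and 2 GFP-negative samples. Zfp423 encodes a zinc-finger protein that promotes commitment to the adipocyte lineage, and the comparison asks how the transcripts of reporter-positive and reporter-negative cells differ. The series describes the population as perivascular and the 3 samples of each group as biological replicates. How the reporter is driven, and whether a replicate was 1 mouse or a pool, is not stated in the labels.

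A G-protein-coupled receptor acts by loading a Gα subunit with GTP, and the signal lasts until the subunit hydrolyses it. RGS proteins speed up that hydrolysis and so shorten the signal, and they fall into subfamilies by sequence. Rgs2, Rgs3, Rgs4, Rgs5 and Rgs16 belong to the R4 subfamily, mostly small proteins that act on the Gi and Gq classes. Rgs17 and Rgs19 belong to the RZ subfamily, and Rgs10, Rgs12 and Rgs14 to the R12 subfamily, which favours the Gi class. In vessel walls Rgs5 is a widely used marker of pericytes, Rgs4 is also found in mural cells, and Rgs2 limits the response of smooth muscle to vasoconstrictors.

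The bases before the transcription start are shown for 3 R4 members: Rgs4, the only member whose difference passed the test, Rgs5, its neighbour on the chromosome, and Rgs16, the other tested member whose groups did not overlap. The sequences are RefSeq's, from build GRCm38.p6, with 250 bases before the start written 5′ to 3′. Windows were found for 9 of the 10 members. Capitals mark matches on either strand of 5 motifs. The TATA box was searched as TATAAA and the E-box as CANNTG. The GC box was searched as GGGCGG. The AP-1 site was searched as TGANTCA, and the core of the CRE, the cyclic AMP response element, as TGACG.
Rgs4, chr1:169747643-169747892, minus strand: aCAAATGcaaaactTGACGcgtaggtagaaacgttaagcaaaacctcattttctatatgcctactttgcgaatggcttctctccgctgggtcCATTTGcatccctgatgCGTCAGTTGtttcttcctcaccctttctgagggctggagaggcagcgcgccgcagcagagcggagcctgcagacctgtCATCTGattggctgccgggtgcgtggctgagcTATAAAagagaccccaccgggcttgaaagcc
Rgs5, chr1:169655251-169655500, plus strand: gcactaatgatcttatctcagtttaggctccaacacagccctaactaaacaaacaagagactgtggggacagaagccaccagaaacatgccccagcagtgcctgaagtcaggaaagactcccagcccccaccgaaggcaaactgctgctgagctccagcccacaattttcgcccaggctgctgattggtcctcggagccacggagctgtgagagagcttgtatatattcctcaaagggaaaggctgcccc
Rgs16, chr1:153740103-153740352, plus strand: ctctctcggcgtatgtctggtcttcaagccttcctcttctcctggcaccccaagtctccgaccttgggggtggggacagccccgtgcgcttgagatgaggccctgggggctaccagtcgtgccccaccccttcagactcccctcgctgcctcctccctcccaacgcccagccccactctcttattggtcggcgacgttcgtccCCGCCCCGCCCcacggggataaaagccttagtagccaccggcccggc
The Rgs4 window held TATAAA, starting 31 bases before the start, 4 matches to CANNTG and 2 to TGACG, of which the one starting 141 bases before the start overlaps the CANNTG that starts at 138. No letters of the 5 motifs were found in the Rgs5 window. The Rgs16 window held 2 GGGCGG matches that overlap each other. Of all 32851 windows of this length, 12.4% held TATAAA, 66.2% CANNTG, 32.7% GGGCGG, 6.75% TGANTCA and 17.8% TGACG. Rgs4 and Rgs5 lie next to each other on chromosome 1, on opposite strands, with no other protein-coding gene between them in the RefSeq table.

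The signal was deposited on a linear intensity scale. It was background-corrected, quantile-normalized and put on the log2 scale, and values below are log2 of this normalized signal unless called raw. A probe counted as detected on an array when its deposited p-value against the negative control beads was under 0.01, and was tested when detected on at least 3 of the 6 arrays. Array medians of the raw signal lay between 145.8 and 162.0, 13068 to 14026 probes were detected per array, and values of 13727 probes (8819 genes) were tested. Correlations over the tested probes were 0.982 to 0.990 within groups and 0.948 to 0.960 between them. Zfp423, the gene of the reporter, was detected on all 6 arrays and its groups overlapped, with a difference of 0.12 ± 0.17 (SE, 95% interval -0.29 to 0.53; limma adjusted p = 0.694). Pdgfrb, on whose protein both groups were sorted, was higher in GFP-positive cells by 0.58 ± 0.11 (SE, limma adjusted p = 0.0172), a call that ended under 4 of 16 alternatives: with the replicate block and without GFP-positive replicate 2 or GFP-negative replicate 1 or 2. Pecam1 (CD31) was detected on all 6 arrays and differed by -0.41 ± 0.23 (SE, limma adjusted p = 0.291), and no probe of Ptprc (CD45) was detected on any.

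Of the 10 members, 7 could be tested: Rgs2, Rgs4, Rgs10, Rgs12, Rgs16, Rgs17 and Rgs19. In the limma fit, at a Benjamini-Hochberg adjusted p under 0.05 among all tested probes, Rgs4 was higher in GFP-positive cells and none was lower. At an unadjusted p under 0.05, with each gene read by its brightest tested probe, 1 more gene, Rgs16, was lower. The dimmer Rgs12 probe was also lower at that level (limma unadjusted p = 0.0238). The share of all tested genes at the unadjusted level was not counted. Over all tested genes 15.8% passed the adjusted threshold, 8.65% as higher and 7.17% as lower. So 1 of 7 members (14.3%) is close to the background and says nothing particular about the family. The groups did not overlap for 2 of the 7 (28.6%), Rgs4 higher and Rgs16 lower, against 36.5% of all tested genes, 17.7% higher and 18.8% lower. The median difference was -0.20 over the 7 and -0.02 over all tested genes. Not tested were Rgs3, Rgs5 and Rgs14.

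**Figure D1:**
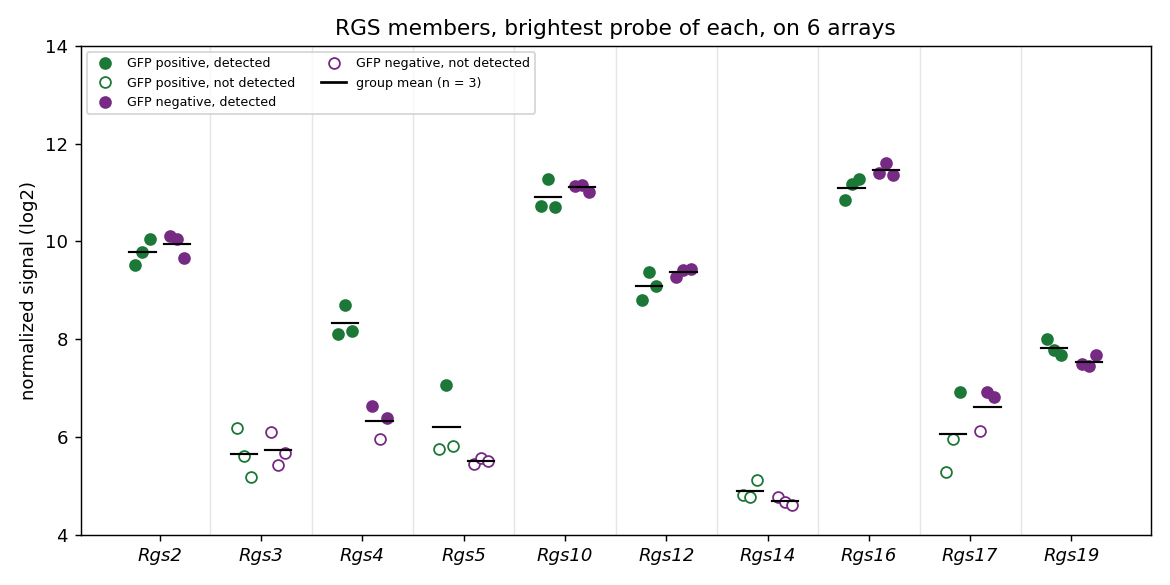
Normalized signal (log2) of the brightest probe of each of the 10 RGS members on the 3 GFP-positive (green, left) and 3 GFP-negative (purple, right) arrays; open points were not detected, lines are group means. Rgs4 lies between 8.12 and 8.70 in GFP-positive and between 5.95 and 6.63 in GFP-negative cells, and levels of different probes are not comparable.

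Rgs4, which shortens Gi and Gq signals, was 4.0-fold higher in GFP-positive cells. Its single probe (ILMN_1244081) read 8.12, 8.70 and 8.16 in the GFP-positive samples, against 6.63, 5.95 and 6.39 in the GFP-negative samples. The lowest GFP-positive value stood well above the highest GFP-negative one. The raw signals were 413.1, 568.2 and 442.3 in GFP-positive cells, against 225.8, 180.0 and 202.7 in GFP-negative cells. The probe was detected on all 3 GFP-positive and on 2 of 3 GFP-negative arrays, with GFP-negative replicate 2 the exception. The group means were 8.32 ± 0.32 in GFP-positive cells, against 6.32 ± 0.35 in GFP-negative cells (SD, n = 3 each), a difference of 2.00 ± 0.23 (SE, 95% interval 1.46 to 2.54; limma adjusted p = 0.00199). The exact 2-sided permutation test gave p = 0.1, the smallest that 3 against 3 arrays allow. Within the arrays whose sample titles open with RG the difference was 1.77, and within those that open with KM it was 1.99. The size depends on the background correction: without it the rise was 1.10, or 2.14-fold, with an adjusted p of 0.000604. In bulk samples more cells that express a gene and more RNA per cell cannot be told apart.

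**Figure D2:**
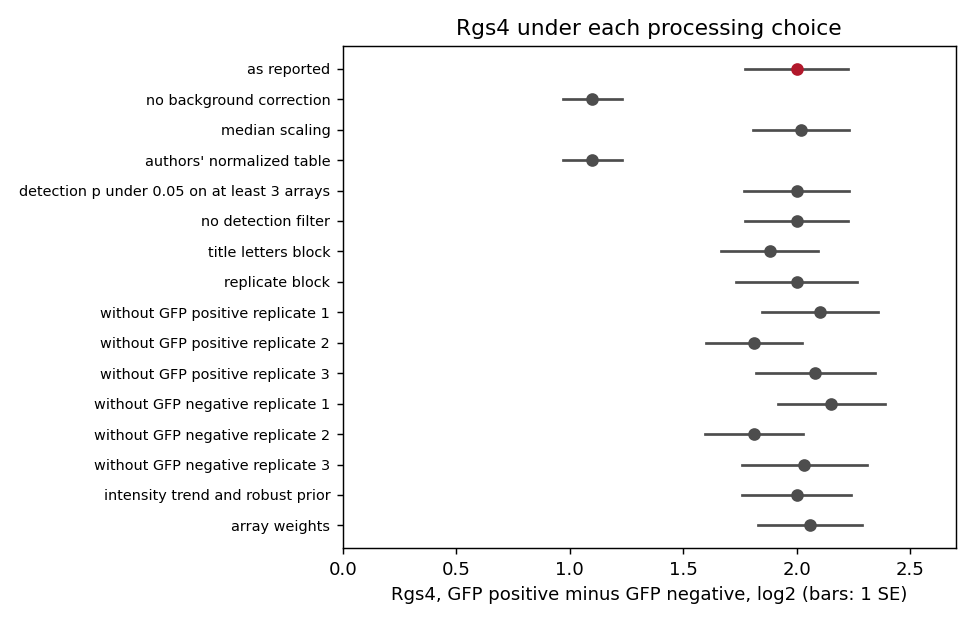
Difference of Rgs4 (log2, GFP positive minus GFP negative, bars 1 SE) as reported (red) and under each processing choice that tested its probe. It runs from 1.10 in the authors' normalized table to 2.15 without GFP-negative replicate 1.

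The gene next to Rgs4 on the side away from Rgs5 differed the other way. Ccdc190 was lower in GFP-positive cells by 1.49 (SE 0.38, limma adjusted p = 0.0432), a call that ended under 6 of 16 alternatives, 5 of them leaving out 1 array. Nuf2, the neighbour of Rgs5, was not tested. By correlation over the 6 arrays, the genes most like Rgs4 were Reep1 (r = 0.998), Tspan4 (r = 0.997) and Lzts2 (r = 0.995). These are the 3 highest by choice, and high correlations are common over 6 arrays: 778 of the 8819 tested genes had an r above 0.9 with Rgs4. Reep1, which shapes the endoplasmic reticulum, rose by 2.26 ± 0.21 (SE, limma adjusted p = 0.000917), whereas Lzts2 differed by 0.28 ± 0.09 (SE, limma adjusted p = 0.0962) and did not pass.

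Rgs5, the pericyte marker, was at or near background. Its single probe (ILMN_2979824) read 5.75, 7.07 and 5.81 in the GFP-positive samples, against 5.44, 5.57 and 5.50 in the GFP-negative samples, and was detected only on GFP-positive replicate 2. The 3 GFP-positive values all lay above the GFP-negative ones, but only that single array rose clear of the negative control beads. The raw signals were 185.3, 274.5 and 193.7 in GFP-positive cells, against 170.7, 166.4 and 165.6 in GFP-negative cells. The gene was therefore not tested, and with no filter on detection the difference was 0.71 ± 0.35 (SE, limma adjusted p = 0.440).

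Genes that mark mural cells (pericytes and vascular smooth muscle) moved with Rgs4. Of 16 markers, Rgs4 and Rgs5 left out, 15 were on the array, 11 were tested, 10 rose and none fell. Abcc9 and Kcnj8, among those that rose, entered the test only through the GFP-positive arrays. The summed linear level of the 15 was 18751 to 24549 in GFP-positive cells, against 8663 to 11070 in GFP-negative cells. Over the alternatives, 7 to 10 of the markers rose: 9 when GFP-positive replicate 2 was left out, 8 when GFP-positive replicate 3 was, and 7 when GFP-negative replicate 2 or 3 was or with the replicate number as a block. Of the smooth muscle genes in the list, Myh11, Acta2 and Des were detected on all 6 arrays and rose. The rises were 1.80 ± 0.22, 0.95 ± 0.18 and 0.78 ± 0.18 (SE, limma adjusted p = 0.0028, 0.0159 and 0.0336). The calls of Acta2 and Des ended under 3 and 7 of 16 alternatives, and that of Myh11 under none. Dimmer Acta2 probes were split: ILMN_2923445 also passed as higher, and ILMN_2710354 and ILMN_2710353 did not pass (limma adjusted p = 0.318 and 0.988). Cnn1 was detected on no array, and Tagln on 1 GFP-positive array by the dimmer of its 2 probes and on none by the brighter. The proteoglycan gene Cspg4 was detected on 1 array of each group. Gucy1a1, a subunit of the nitric oxide receptor, rose by 2.52 ± 0.20 (SE, limma adjusted p = 0.000506), and its partner subunit Gucy1b1 by 1.19 ± 0.17 (adjusted p = 0.00473).

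Kcnj8 and Higd1b, a pair of pericyte markers, were singled out after their values were seen. Kcnj8, a potassium channel subunit, read 6.85, 10.09 and 8.32 in the GFP-positive samples, against 5.82, 5.82 and 5.49 in the GFP-negative samples. It was detected on all 3 GFP-positive arrays and on no GFP-negative array, so it entered the test only through the GFP-positive arrays. Its call as higher ended under 10 of 15 alternatives. Higd1b read 5.77, 6.42 and 5.72 in the GFP-positive samples, against 5.36, 5.17 and 4.85 in the GFP-negative samples, and was detected only on GFP-positive replicate 2. Like Rgs4 and Rgs5, 7 of the 15 mural markers were highest on GFP-positive replicate 2, among them Kcnj8, Higd1b and Gucy1a1. Of the others, 2 were highest on GFP-positive replicate 1, 5 on GFP-positive replicate 3 and 1 on a GFP-negative array. The tally includes Higd1b, Cspg4, Tagln and Cnn1, detected on few arrays or none, and no such tally was made over all genes. The summed mural level was highest on GFP-positive replicate 2 too. Notch3, with 8.31, 8.26 and 8.55 in GFP-positive cells, against 7.15, 7.43 and 7.29 in GFP-negative cells, was highest on GFP-positive replicate 3. Without GFP-positive replicate 2 Rgs4 was still higher, by 1.81 ± 0.21 (SE, limma adjusted p = 0.00567). What part the mural markers have in the Rgs4 difference was not tested.

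**Figure D3:**
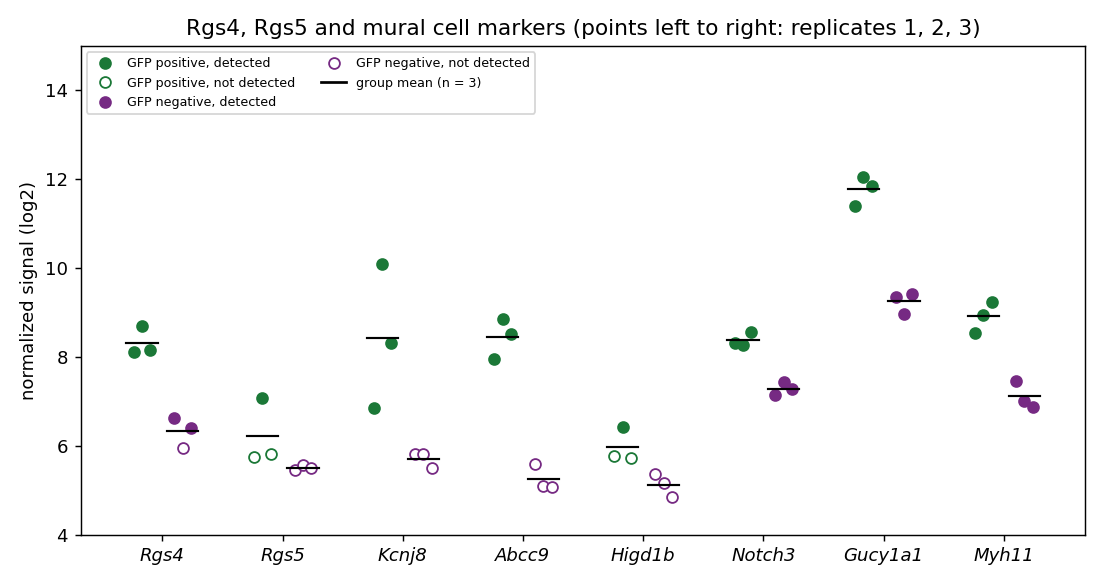
Normalized signal (log2) of Rgs4, Rgs5 and 6 mural cell markers on each array, GFP positive left and GFP negative right, replicates 1, 2 and 3 from left to right; open points were not detected. On GFP-positive replicate 2 Rgs5 reached 7.07 and Kcnj8 10.09, each the highest of its 6 values.

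The remaining tested R4 members, Rgs16 and Rgs2, are genes that stimulation of a cell induces quickly. Rgs16 (ILMN_2600744) read 10.86, 11.17 and 11.27 in the GFP-positive samples, against 11.40, 11.61 and 11.37 in the GFP-negative samples. All 3 GFP-positive values lay under the GFP-negative ones, by a small gap. The difference was -0.36 ± 0.14 (SE, 95% interval -0.70 to -0.02) and did not pass (limma adjusted p = 0.143), nor did it under any of 16 alternatives. The brighter Rgs2 probe (ILMN_2480115) read 9.52, 9.78 and 10.04 in GFP-positive cells, against 10.11, 10.05 and 9.66 in GFP-negative cells, and the groups overlapped. Its difference was -0.16 ± 0.18 (SE, 95% interval -0.59 to 0.27; limma adjusted p = 0.595), with -0.46 for RG titles alone and 0.18 for KM titles alone. The dimmer Rgs2 probe (ILMN_2666622) was detected on 2 GFP-positive arrays and 1 GFP-negative array and differed by 0.29 ± 0.47 (SE, 95% interval -0.81 to 1.40), or by -0.10 without GFP-positive replicate 2. Of 13 tested genes that cell isolation is known to induce, 1 fell (Junb, by 0.68) and none rose. The Junb call ended with the replicate block or without GFP-negative replicate 3. Hspa1a and Hspa1b lay higher, by 0.91 and 1.37, and did not pass (limma adjusted p = 0.0579 and 0.0998). Atf3 lay lower, by 0.48, and did not pass either (limma adjusted p = 0.0530).

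Rgs3, whose longer isoforms carry a PDZ domain, was measured by 9 probes, and none was detected on any array. They ranged from 4.63 to 6.18 in GFP-positive cells, against from 4.63 to 6.10 in GFP-negative cells. Its probes were designed to 3 RefSeq transcripts (NM_019492, NM_134257 and NM_001081650).

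In the R12 subfamily no single probe passed. Rgs10, a short RGS protein best known from immune cells and microglia, read 10.73, 11.29 and 10.71 in GFP-positive cells, against 11.14, 11.16 and 11.01 in GFP-negative cells. The GFP-positive values spread to both sides of the GFP-negative ones. Its difference of -0.20 ± 0.17 (SE, 95% interval -0.61 to 0.21) did not pass (limma adjusted p = 0.486). Rgs12, a large protein that also binds Ras and inactive Gα subunits, read 8.81, 9.38 and 9.09 in GFP-positive cells, against 9.28, 9.41 and 9.43 in GFP-negative cells with its brighter probe (ILMN_2686745), a difference of -0.28 ± 0.16 (SE, limma adjusted p = 0.286). The dimmer probe (ILMN_1217485), detected on 5 of 6 arrays, read 6.86, 6.34 and 6.49 in GFP-positive cells, against 7.23, 6.85 and 7.10 in GFP-negative cells. It differed by -0.49 ± 0.17 (SE, 95% interval -0.90 to -0.09, limma unadjusted p = 0.0238, adjusted p = 0.102). For both probes 1 GFP-positive array overlapped the GFP-negative range. Averaged over the 2 probes, Rgs12 passed as lower, by 0.39 (SE 0.10, limma adjusted p = 0.0344), so its call depends on how the probes are combined. Rgs14, a scaffold known from neurons and lymphocytes, was not detected on any array, with values of 4.78 to 5.12 in GFP-positive cells, against 4.60 to 4.77 in GFP-negative cells.

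**Figure D4:**
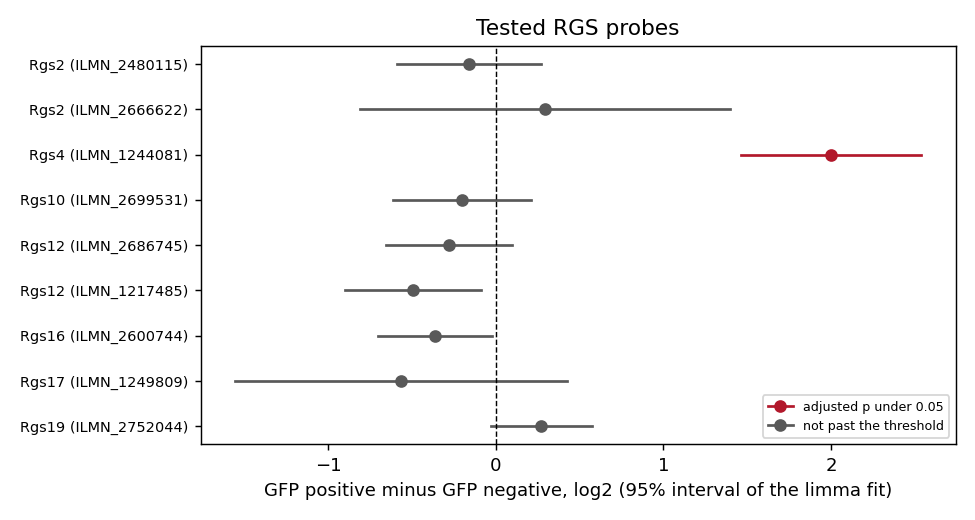
GFP positive minus GFP negative (log2) with the 95% interval of the limma fit for the 9 tested RGS probes. Only Rgs4, at 2.00, passed the threshold (red). The interval of Rgs16 ends at -0.02 and that of the dimmer Rgs12 probe at -0.09.

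In the RZ subfamily neither member passed. Rgs19, also called GAIP, read 7.99, 7.77 and 7.68 in GFP-positive cells, against 7.49, 7.45 and 7.68 in GFP-negative cells with its detected probe (ILMN_2752044). GFP-negative replicate 3 reached the GFP-positive range, and the difference was 0.27 ± 0.13 (SE, 95% interval -0.03 to 0.58; limma adjusted p = 0.202). The other Rgs19 probe was not detected on any array. Rgs17, known mainly from the brain, read 5.28, 5.95 and 6.92 in GFP-positive cells, against 6.12, 6.92 and 6.81 in GFP-negative cells (ILMN_1249809), which is a difference of -0.56 ± 0.42 (SE, 95% interval -1.55 to 0.43; limma adjusted p = 0.409). Detection of this probe went with the letters of the sample titles. It was detected on all 3 KM arrays, 1 GFP-positive and 2 GFP-negative, and on none of the 3 RG arrays, 2 GFP-positive and 1 GFP-negative. On that GFP-negative array its p-value against the control beads, 0.0128, lay just over the threshold of 0.01. Within the RG arrays the difference was -0.51 and within the KM arrays 0.06. The other Rgs17 probe (ILMN_1219289) was not detected on any array. It read 4.93, 5.40 and 5.76 in GFP-positive cells, against 5.65, 5.62 and 5.48 in GFP-negative cells, where the RG value was not the lowest. The labels do not say what the letters stand for.

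Of the other RGS genes, 11 were on the array, with Rgs7bp and Rgs9bp, which encode partners of R7 proteins, counted among them. Rgs9, an R7 member best known from retina and striatum, was detected on all 3 GFP-positive arrays and on no GFP-negative array, with 6.45, 6.53 and 6.11 in GFP-positive cells, against 4.85, 4.96 and 5.56 in GFP-negative cells. It passed as higher (limma adjusted p = 0.0108), by at least 1.13-fold when the GFP-negative arrays are set at the lowest detected signal. Rgs9 entered the test only through the GFP-positive arrays, so this p-value is not independent of its detection there. Rgs6, also of the R7 subfamily, was detected only on GFP-negative replicates 2 and 3 and was not tested, with 5.37, 6.15 and 4.94 in GFP-positive cells, against 5.95, 7.02 and 7.45 in GFP-negative cells. Rgs1, Rgs7, Rgs8, Rgs11, Rgs13, Rgs18 and Rgs20 were not detected on any array, and these include Rgs13 and Rgs1, the genes that follow Rgs2 on the chromosome, and Rgs8, which precedes Rgs16.

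The pathway in which RGS proteins act was read from 7 lists of 117 genes, the other RGS genes included. Of 68 tested genes 12 rose and 8 fell (29.4%, against 15.8% of all tested genes), with a median of -0.01 against -0.02; the lists were chosen with earlier results known. Of the 20 genes past the threshold, 11 kept their call under every alternative that tested them. With 1 array left out the number that fell was 5 for GFP-positive replicate 1 or 2, 3 for GFP-positive replicate 3 and 4 for GFP-negative replicate 2 or 3, and the number that rose was 8 for GFP-positive replicate 1 or for GFP-negative replicate 2 or 3.

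Among 15 tested receptors for vasoactive ligands 4 rose and 1 fell. F2r, the thrombin receptor, read 13.32, 13.51 and 13.39 in GFP-positive cells, against 12.53, 12.34 and 12.46 in GFP-negative cells, a rise of 0.96 ± 0.11 (SE, limma adjusted p = 0.00199). Tbxa2r, the thromboxane receptor, rose by 1.39 ± 0.17 (adjusted p = 0.00266). Adra2c, an α2 adrenergic receptor not detected in GFP-negative cells with this probe, rose by at least 1.64-fold (adjusted p = 0.00115). This Adra2c probe entered the test only through the GFP-positive arrays. Agtr1a, a receptor for angiotensin II, went the other way, 1.84-fold lower (log2 difference -0.88 ± 0.11 SE, limma adjusted p = 0.00247). It read 9.40, 9.39 and 9.19 in GFP-positive cells, against 10.20, 10.18 and 10.23 in GFP-negative cells. Agtr1b, the related receptor gene in the same list, was not tested. Its brightest probe read 6.65, 5.60 and 6.60 in GFP-positive cells, against 4.94, 4.83 and 5.01 in GFP-negative cells. That probe was detected on 2 GFP-positive arrays and on 0 GFP-negative arrays. P2ry6, a receptor for UDP, rose too. These 5 calls held under every alternative that tested them.

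Among 9 tested Gα genes 2 rose and none fell. Gnao1, which encodes Go, a substrate of Rgs4, read 7.99, 8.10 and 8.58 in GFP-positive cells, against 6.78, 7.14 and 6.92 in GFP-negative cells, a rise of 1.28 ± 0.18 (SE, limma adjusted p = 0.00517). Gnai1 also passed (limma adjusted p = 0.0491), but its call ended under 7 of 15 alternatives, 4 of them leaving out 1 array. Its probe was detected on all 3 GFP-positive arrays but on only 1 GFP-negative array. Gnai2, which encodes another Gi subunit, differed by -0.01 (95% interval -0.26 to 0.24), and Gnaq by 0.10 (95% interval -0.24 to 0.44). Among 10 tested Gβ and Gγ genes 1 rose and 2 fell, with Gng4 lower by 1.37 (SE 0.23, limma adjusted p = 0.0102). Gng4 was detected on all 3 GFP-negative arrays but on only 1 GFP-positive array, and without background correction its difference was -0.60. The calls of Gng8, which rose, and Gng10, which fell, ended under 8 and 7 of 16 alternatives.

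Among 9 tested effectors 1 rose and 4 fell. Adcy8, a calcium-stimulated adenylyl cyclase, read 7.57, 7.69 and 7.87 in GFP-positive cells. No GFP-negative array detected it, which makes it higher by at least 2.88-fold (adjusted p = 0.000747). It entered the test only through the GFP-positive arrays. Adcy3, another adenylyl cyclase, read 6.47, 6.48 and 6.38 in GFP-positive cells, against 7.16, 7.28 and 7.09 in GFP-negative cells, which is a difference of -0.73 ± 0.10 (SE, adjusted p = 0.00496). The falls of Adcy2, of Itpr3, a receptor for IP3, and of Plcb3, a Gq effector, ended under 6, 5 and 9 of 16 alternatives, of which 4, 3 and 5 left out 1 array. Among 11 tested regulators of other kinds 3 rose and none fell, led by Gprasp2, which binds receptors bound for degradation. Gprasp2 read 8.33, 8.58 and 8.53 in GFP-positive cells, against 6.59, 5.14 and 5.49 in GFP-negative cells (2.74 ± 0.35 SE, limma adjusted p = 0.00329). It was detected on all 3 GFP-positive arrays but on only 1 GFP-negative array, so its size depends on signals near background. Without background correction the rise was 1.41. The rises of Gprasp1 and of Arrb1, a β-arrestin, ended under 8 and 7 of 16 alternatives, and the dimmer Gprasp1 probe (ILMN_3142384) went the other way, at -0.14 (limma adjusted p = 0.722). Among 11 tested proteins with an RGS homology domain none rose and 1 fell (Snx25, by 0.66), a call that ended when GFP-positive replicate 2 or 3, or GFP-negative replicate 1 or 2, was left out. Its dimmer probe differed by -0.25 (limma adjusted p = 0.425).

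**Figure D5:**
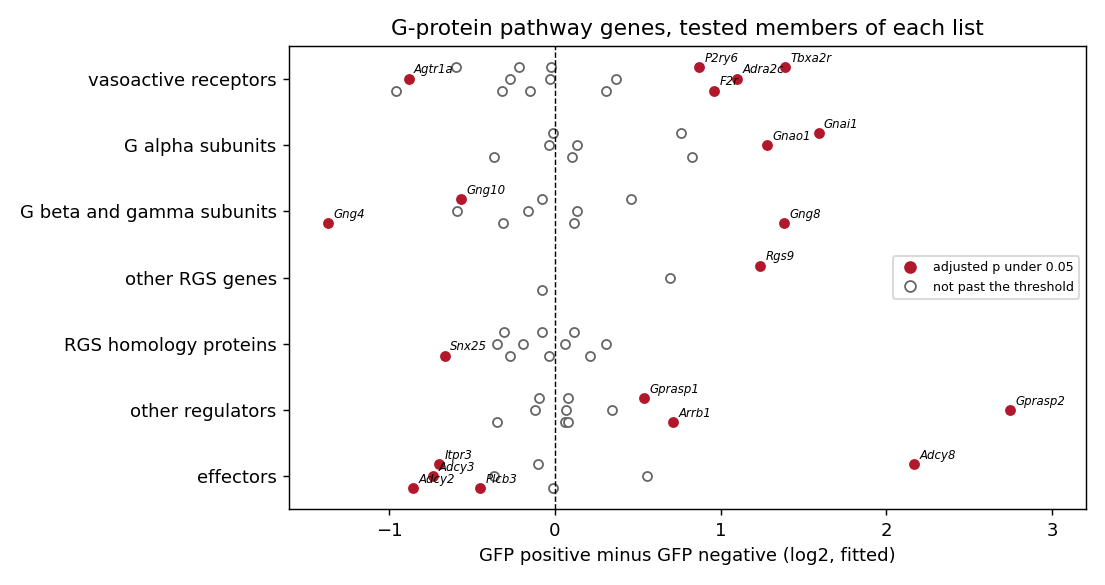
GFP positive minus GFP negative (log2, fitted) of each tested gene in 7 lists of the G-protein pathway; red points passed the threshold and are named. Of 68 genes 12 lie to the right and 8 to the left as red points.

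Several members are also expressed by leukocytes, and the markers of other cells were read for this. Of 9 macrophage markers on the array, 5 (Ptprc, Adgre1, Itgam, Tyrobp and C1qa) were not detected on any array, and 4 were tested. Lyz2 and Csf1r were detected in GFP-positive cells alone and rose, by at least 6.96-fold and 2.42-fold (limma adjusted p = 0.000145 and 0.000375). Both entered the test only through the GFP-positive arrays. For Csf1r the GFP-negative p-values against the control beads, 0.0107, 0.0128 and 0.0150, lay just over the detection threshold of 0.01. Fcer1g differed by -1.12 ± 0.47 (SE, limma adjusted p = 0.161) and Cd14 by 0.42 ± 0.25 (SE, limma adjusted p = 0.305). The summed level was 902 to 1160 in GFP-positive cells, against 491 to 528 in GFP-negative cells, and without Lyz2 it was 472 to 551 in GFP-positive cells, against 458 to 497 in GFP-negative cells. Of 7 lymphocyte markers 6 were detected nowhere, and the sum was 228 to 273 in GFP-positive cells, against 288 to 308 in GFP-negative cells. That sum includes these 6 genes at background. The 1 tested gene, Cd79b, differed by -0.80 ± 0.28 (SE, limma adjusted p = 0.106) and did not pass. Of 10 endothelial markers 8 were tested, 1 rose (Eng, by 0.43, a call that ended under 11 of 16 alternatives, among them the loss of any 1 array) and 1 fell (Tek, by 1.64), with a median difference of 0.22. The sum was 5305 to 6196 in GFP-positive cells, against 11348 to 12377 in GFP-negative cells. Without Tek it was 2224 to 2800 in GFP-positive cells, against 2290 to 2452 in GFP-negative cells. Of 6 adipocyte markers 5 were detected nowhere, and mesothelial markers summed to 694 to 2653 in GFP-positive cells, against 834 to 1037 in GFP-negative cells, highest on GFP-positive replicate 1. Of 7 tested fibroblast markers none rose and 1 fell: Dpp4, a peptidase that marks interstitial progenitors, read 10.54, 10.38 and 8.42 in GFP-positive cells, against 12.57, 12.75 and 12.86 in GFP-negative cells. Its difference was -2.94 ± 0.53 (SE, limma adjusted p = 0.0127), and the call ended without GFP-negative replicate 2 or 3. Pi16, from the same list, lay the other way, at 0.44 ± 0.13 (SE, limma adjusted p = 0.0713), and did not pass. The median difference of the 7 was 0.06. The 7 fibroblast markers summed to 77430 to 89256 in GFP-positive cells, against 80426 to 85874 in GFP-negative cells. Without Dpp4 the sum was 77089 to 87768 in GFP-positive cells, against 74359 to 78450 in GFP-negative cells. Of 3 Schwann cell markers 2 were detected nowhere, with sums of 133 to 161 in GFP-positive cells, against 114 to 132 in GFP-negative cells. The 1 tested gene, Ngfr, differed by 0.38 ± 0.17 (SE, limma adjusted p = 0.196) and did not pass. What part these cells have in any RGS value was not tested.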

How the data were processed

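The authors deposited a table of probe signals on a linear intensity scale, not normalized between arrays, with a detection p-value per probe and array, per the file headers, and a second intensity table whose columns share 1 distribution (medians of 154.1 or 154.2). The submitters' processing notes name GenomeStudio; other steps were not given in the sources used here. Amplification of the RNA took 2 rounds, per the labels. Genes were named from the platform annotation (34885 probes with 1 symbol, 18 with several, 10378 with none); 34807 matched a RefSeq table of GRCm38.p6 by gene number, which changed 0 symbols. The neqc function of limma 3.58.1, run in R 4.3.3, did normexp correction (control values inferred through detection p-values, offset 16), quantile normalization and log2. Fits used lmFit and eBayes on all 6 arrays, 2-sided, and p-values were adjusted by Benjamini-Hochberg across every tested probe. A gene was read by its tested probe of highest mean. For a gene detected on no array of a group, the fold is a lower bound against the higher of its own and the lowest detected value of each array. Such a gene entered the test only through the group that detected it, so its p-value is not independent support for the difference. Named were all members, up to 4 genes past the threshold per pathway list by p, and the 3 genes most correlated with each member past the threshold. P2ry6 and Plcb3, the 5th by p in their lists, Agtr1b, which was not tested, and most marker genes were named outside this rule, after their values were seen. The members, lists and tests were chosen with earlier results of these data known. The number of arrays limits the precision. The fits were tested on simulated data. Promoter strands were checked by the place of TATAAA. Same-numbered replicates had correlations of -0.07, -0.20 and 0.07 between their deviations from the group means, so no pairing by number was seen. The highest such correlations were 0.25, for GFP-positive replicate 2 with GFP-negative replicate 1 (both RG), and 0.16, for GFP-positive replicate 3 with GFP-negative replicate 2 (both KM). With 3 arrays per group these values cannot settle which samples share a mouse or preparation.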

Additional observations from a re-analysis of the deposited data

How the results depend on the processing

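The Rgs4 rise passed under all 15 alternatives that tested its probe, from 1.10 to 2.15 (log2, highest adjusted p = 0.0158, with the replicate block). Requiring detection on all 6 arrays left it untested, so 0 members were higher there. No other single member probe passed under any alternative; the mean over a gene's tested probes made 1 member, Rgs12, lower. Leaving out 1 array kept the member counts at 1 higher and 0 lower. The dimmer Rgs2 probe turned to -0.10 without GFP-positive replicate 2, against 0.29 as reported, and its highest value was 0.86 without GFP-positive replicate 1. Pathway genes higher ran from 8 to 12 and lower from 3 to 8 with single arrays left out; requiring detection on all 6 arrays gave 7 higher, and no detection filter gave 4 lower. The replicate block gave 9 higher and 6 lower pathway genes and ended no member's call; not every sample correlated best with its own number. Of all tested genes 1395 passed as reported, and 719 and 756 without GFP-negative replicate 2 and 3. The alternatives for the mural counts and for Dpp4, Pdgfrb, Eng and Junb were added after seeing the data. Where a probe is near background, as for Rgs5, Rgs9 and Rgs17, the signal limits what could be measured; the cause of the changes was not tested.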
